A study of Mus musculus with 9 samples.

Results

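The genes described here are the subunits of protein kinase A (PKA) and the CREB transcription factors with their coactivators in the paraventricular nucleus of the hypothalamus (PVN). They were chosen by gene symbol in the count table, 10 of 27179 genes. Prkaca was put forward with its difference between the groups already known, so its differences from HFD mice are a description with no p-value. Where it passes the threshold for a call nothing is read from that. The other genes, the pathway lists and the markers were also chosen with earlier results of these data known. A p-value or FDR given for them is therefore not independent of that choice. All 10 passed the filter on low counts that left 17344 genes for testing. Expression was measured by bulk RNA sequencing of PVN punches from 9 male wild type C57BL/6 mice (C57BL/6J in the methods), 3 in each of 3 groups. Control mice ate chow with 16% of calories from fat for 12 weeks. HFD mice ate a diet with 60% of calories from fat for the same time, and HFD+Mino mice ate that diet and, over the final 6 weeks, drank water with minocycline (40 mg/kg/day), a tetracycline antibiotic. Mice were 5 weeks old when the diets began, by the methods, and every sample is labelled postnatal day 35. No group without a high-fat diet received minocycline, and a punch holds neurons, glia and vessels together, so fewer cells of a type and less RNA per cell cannot be told apart.

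PKA is the main effector of the second messenger cAMP. At rest a dimer of regulatory subunits holds a pair of catalytic subunits inactive, and cAMP made by adenylyl cyclases downstream of Gs-coupled receptors binds the regulatory subunits and releases the catalytic ones. Free catalytic subunits phosphorylate ion channels, metabolic enzymes and CREB, which binds the cAMP response element (CRE) of promoters and recruits coactivators, among them the CRTC proteins that enter the nucleus when salt-inducible kinases no longer phosphorylate them. In the PVN this route lies downstream of the melanocortin 4 receptor and of other peptide receptors that regulate feeding and energy expenditure.

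Prkaca and Prkacb encode the catalytic subunits Cα and Cβ and are close relatives, so the counts of one could in principle hold reads of the other. Their coding sequences of equal length (1056 bases in GENCODE M21) were identical at 848 positions, or 80.3%, and the longest identical run was 34 bases, shorter than the 50-base reads. None of the 50-base stretches of the annotated Prkaca transcripts occurred in a Prkacb transcript, and the same held for the pairs Prkar1a and Prkar1b, Prkar2a and Prkar2b, Creb1 and Crem, and Crtc1 and Crtc2 (0 shared stretches in each pair). The stretch of 100 bases in which the catalytic genes are most alike is shown because it is where their reads are hardest to separate. It covers coding bases 206 to 305, spans an exon junction in both genes, and holds 10 differences, which are in capitals. In the build GRCm38 it lies at chr8:83981269-83981300 and chr8:83986837-83986904 on the plus strand for Prkaca, and at chr3:146755632-146755663 and chr3:146751478-146751545 on the minus strand for Prkacb.
Prkaca: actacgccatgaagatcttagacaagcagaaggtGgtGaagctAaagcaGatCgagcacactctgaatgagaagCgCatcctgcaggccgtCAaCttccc
Prkacb: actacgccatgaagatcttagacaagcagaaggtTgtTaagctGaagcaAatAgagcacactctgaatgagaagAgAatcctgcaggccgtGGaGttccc

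The element that CREB binds was also looked for in the promoters of the genes themselves, taken from RefSeq on GRCm38.p6 as 250 bases before to 50 after each start site. The full palindromic CRE (TGACGTCA, which reads the same on both strands) was found in 1 of the 8 genes with a promoter sequence, Prkar1a, the regulatory subunit RIα. Crem and Crtc2 had no promoter sequence in the source used and were not searched. Of all genes with a promoter sequence, 549 of 27025, or 2.03%, held it in at least 1 of their windows. In Prkar1a the element begins 49 bases before one of its start sites. The element also lies in the window of another Prkar1a start site, after that site. The stretch around it, at chr11:109650889-109650918 on the plus strand, is given with the element in capitals. A match of letters is a description and not a binding site.
Prkar1a: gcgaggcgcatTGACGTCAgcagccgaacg

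Total counts ran from 17728590 to 42326213 per sample, and levels are given as CPM, which sets the counts of all libraries to one size by the TMM method. Some libraries stood apart in the markers of the tissue. Control 1 was at or near 0 for the PVN genes Avp (0.149 CPM), Oxt (0.770 CPM), Sim1 (0.770 CPM) and Otp (0 CPM). Trh was also low there, at 5.49 CPM compared to at least 260 CPM in the other samples. Crh was not, at 20.6 CPM compared to 14.4 CPM in HFD 1. The summed mature oligodendrocyte markers of Control 1 reached 29217 CPM, compared to at most 6886 CPM in the HFD group. Control 2 held transcripts of the neighbouring lateral hypothalamus, with Hcrt at 813 CPM and Pmch at 2560 CPM. Control 1 held them at a lower level, with Hcrt at 73.4 CPM and Pmch at 391 CPM. The highest values of Hcrt and Pmch were 0.502 and 22.5 CPM in HFD and 7.02 and 51.2 CPM in HFD+Mino. HFD+Mino 1 and 2 carried Avp at 28049 and 22180 CPM, while the highest HFD sample had 1984 CPM. Ribosomal precursor RNA (Rn45s) took 0.350% to 0.430% of the counts in HFD samples, 0.0266% to 0.0438% in Control and 0.0450% to 0.113% in HFD+Mino. The level of long transcripts compared to short ones also differed: log2 CPM relative to the mean of all samples changed per doubling of exon length by 0.16 to 0.24 in HFD, by -0.06 to 0.16 in Control and by -0.33 to -0.07 in HFD+Mino. The 3 groups were compared in pairs with edgeR's quasi-likelihood test fitted to all 9 samples, and a gene was called at a Benjamini-Hochberg FDR under 0.01 and a change of at least 1.5-fold. Whether the samples of a group differ by mouse alone was not tested, since dissection and library differ along with the mouse.

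HFD was the lowest group for one catalytic gene and the highest for the other. Prkaca (chr8:83972978-83996444, plus strand, GRCm38.p6) measured 146, 163 and 196 CPM in Control 1 to 3. In HFD 1 to 3 it measured 8.38, 12.9 and 11.3 CPM, and in HFD+Mino 1 to 3 it measured 51.5, 27.4 and 163 CPM. Every HFD sample was below every other sample, while HFD+Mino was split, with replicate 3 inside the Control range and replicates 1 and 2 between the groups. The mean was 169 ± 25.6 CPM (SD, n = 3) in Control, 10.9 ± 2.30 CPM in HFD and 80.7 ± 72.4 CPM in HFD+Mino. The log2 fold change of Prkaca was -3.95 ± 0.57 (SE) in HFD compared to Control and 2.89 ± 0.54 in HFD+Mino compared to HFD. With Control 1 and 2 left out, which leaves 1 Control sample, the first was -4.17. Between HFD+Mino and Control it was -1.06 ± 0.51, but -2.10 without HFD+Mino 3 and -0.04 with HFD+Mino 1 and 2 left out instead. The 2 libraries with intermediate Prkaca were those with the high Avp level.

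Prkacb (chr3:146729579-146812946, minus strand) had more reads than Prkaca in every sample. Control 1 to 3 held 374, 523 and 590 CPM, HFD 1 to 3 held 877, 777 and 823 CPM, and HFD+Mino 1 to 3 held 244, 379 and 413 CPM. All HFD samples lay above all others and the ranges of Control and HFD+Mino overlapped. Compared to Control, Prkacb in HFD differed by a log2 fold change of 0.74 ± 0.25 (edgeR FDR 0.127), which was not called. Compared to HFD, HFD+Mino differed by -1.26 ± 0.26, and the FDR of 0.0103 lay just outside the threshold. When same-numbered samples of Control and HFD+Mino, which deviated together, were paired by a replicate block, both differences were called by edgeR, at 0.76 with an FDR of 0.00559 and at -1.29 with an FDR of 0.000289. That fit, chosen after seeing the data, called 1078 and 4441 of the 17344 genes. Its pairing was read from these same counts, so its FDRs are not an independent test. With the trend of each sample on exon length removed, the 2 differences of Prkacb were 0.43 and -0.74, each smaller by more than 1.5 times. Prkacb has 8772 exon bases in the annotation and Prkaca 2488.

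**Figure D1:**
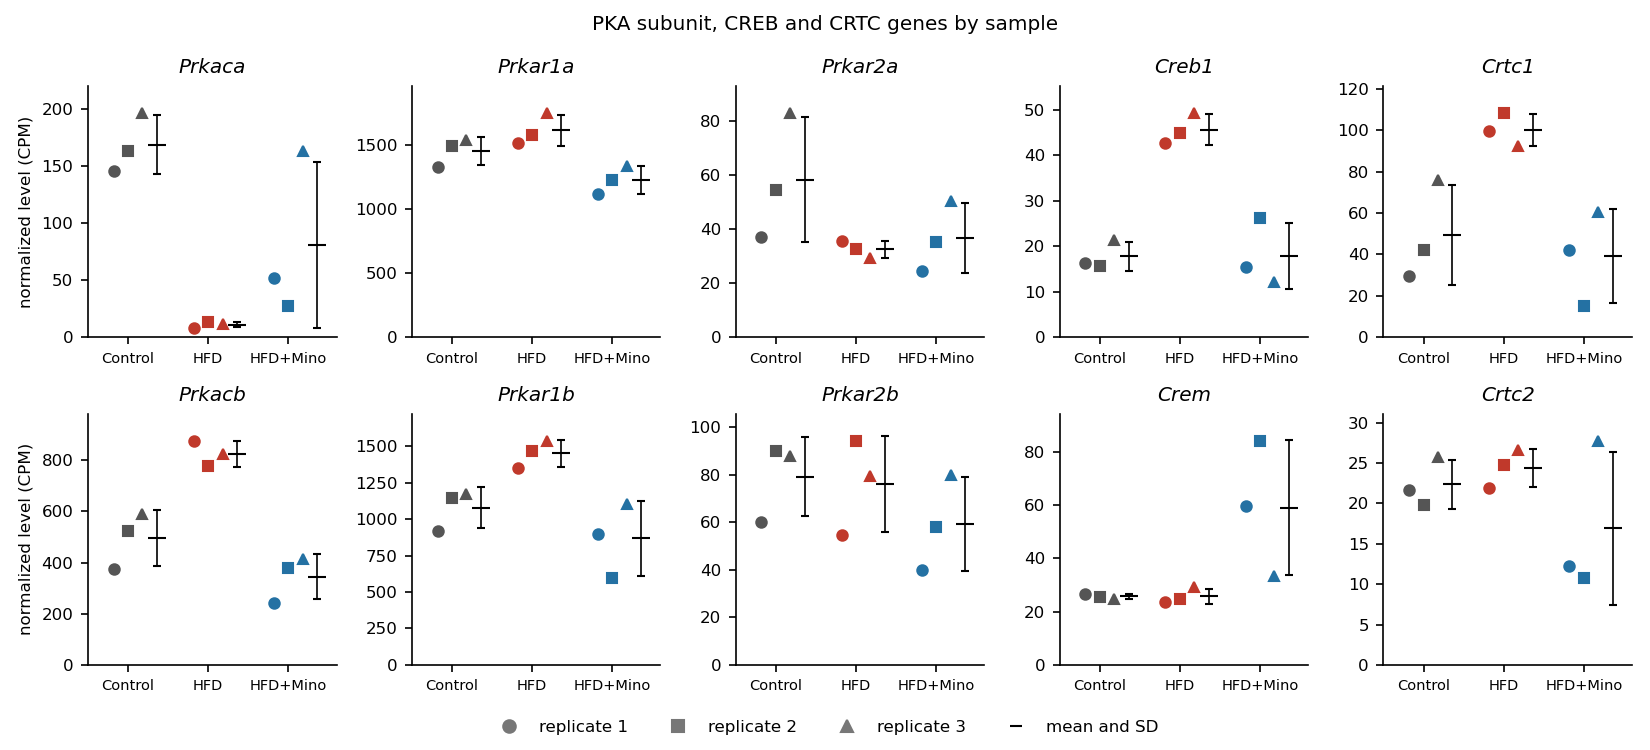
Level of each gene in every sample (CPM on a linear axis from 0, 1 panel per gene), with the mean and SD of each group (n = 3) in black. HFD samples sit below all others in Prkaca and above all others in Prkacb, Prkar1b, Creb1 and Crtc1, while Crem is highest in HFD+Mino 1 and 2.

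None of the 4 regulatory genes was called in any of the 3 comparisons. Prkar1a (RIα, chr11:109649023-109669663, plus strand) had the highest mean CPM of the 10 genes in each group, with 1334, 1494 and 1539 CPM in Control, 1518, 1582 and 1754 CPM in HFD and 1123, 1226 and 1339 CPM in HFD+Mino. Control overlapped with both other groups. Its log2 fold change was 0.15 ± 0.19 in HFD compared to Control (edgeR FDR 0.692) and -0.40 ± 0.19 in HFD+Mino compared to HFD (edgeR FDR 0.145).

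Prkar1b, the RIβ gene whose product is found mainly in neurons (chr5:139017304-139150703, minus strand), measured 920, 1146 and 1171 CPM in Control, 1352, 1464 and 1538 CPM in HFD and 898, 598 and 1107 CPM in HFD+Mino. As in Prkacb, every HFD sample was above the other 6. The log2 fold change was 0.43 ± 0.25 in HFD compared to Control (edgeR FDR 0.358) and -0.74 ± 0.25 in HFD+Mino compared to HFD (edgeR FDR 0.0458), neither of them called. Prkar1b shares 341 exon bases with the gene Gm15672 on the same strand, and how reads in that stretch were assigned is not given in the sources used here.

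The type II regulatory genes had lower levels per length than the type I genes, with group means of 5.09 to 21.7 CPM per kb of exon compared to 228 to 381 CPM per kb. Prkar2a (RIIα, chr9:108692143-108750444, plus strand) held 37.1, 54.5 and 83.0 CPM in Control, 35.5, 32.6 and 29.3 CPM in HFD and 24.4, 35.1 and 50.3 CPM in HFD+Mino. All 3 HFD samples were below all Control samples, but the log2 fold change of -0.84 ± 0.33 was not called (edgeR FDR 0.174). Prkar2b (RIIβ, chr12:31958450-32061648, minus strand) held 60.0, 89.7 and 87.7 CPM in Control, 54.5, 94.2 and 79.2 CPM in HFD and 39.9, 58.0 and 79.7 CPM in HFD+Mino, and all groups overlapped. Its differences were -0.06 ± 0.30 in HFD compared to Control and -0.36 ± 0.30 in HFD+Mino compared to HFD, on the log2 scale.

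Creb1, which encodes the cAMP-responsive activator CREB (chr1:64532794-64604548, plus strand), measured 16.2, 15.7 and 21.4 CPM in Control, 42.8, 44.9 and 49.3 CPM in HFD, and 15.4, 26.1 and 12.1 CPM in HFD+Mino. The lowest HFD sample was above the highest of the other 6, and Control and HFD+Mino overlapped with means of 17.8 ± 3.14 and 17.9 ± 7.33 CPM (SD, n = 3). Creb1 differed by 1.36 ± 0.29 on the log2 scale in HFD compared to Control (edgeR FDR 0.0220) and by -1.35 ± 0.29 in HFD+Mino compared to HFD (edgeR FDR 0.0121), both past 1.5-fold and short of the FDR threshold. Both were called by DESeq2, with FDRs of 0.000357 and 0.000224, and by edgeR's likelihood ratio test, with FDRs of 0.00107 and 0.000588. DESeq2 called 6.91% and 23% of all genes in these comparisons and the likelihood ratio test 5.57% and 19.1%. The block in Control and HFD+Mino called only the second (edgeR FDR 0.0105 and 0.00316). That fit, with its pairing read from these counts, called 6.22% and 25.6% of all genes. Creb1 has the longest exon sequence of the 10 genes, 13742 bases, and with the trend on exon length removed the differences were 0.88 and -0.75 (edgeR FDR 0.0691 and 0.0587).

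Crem, the CREB relative whose gene also makes the inducible repressor ICER from an internal promoter (chr18:3266354-3337773, minus strand), did not share this pattern. It measured 26.7, 25.6 and 24.9 CPM in Control, 23.7, 24.6 and 29.1 CPM in HFD and 59.6, 84.1 and 33.4 CPM in HFD+Mino. Control and HFD overlapped, and each HFD+Mino sample was above all 6 others. The log2 fold change was 0.00 ± 0.30 in HFD compared to Control (edgeR FDR 0.996), 1.20 ± 0.30 in HFD+Mino compared to HFD (edgeR FDR 0.0175) and 1.20 ± 0.30 in HFD+Mino compared to Control (edgeR FDR 0.132). None was called, while DESeq2 and the block in Control and HFD+Mino called the second of them (FDR 0.00134 and 0.00515). In that comparison DESeq2 called 23% of all genes and the block 25.6%. The 2 highest Crem values belonged to the libraries with the high Avp level, HFD+Mino 1 and 2. With both left out the difference from HFD was 0.38 and that from Control 0.39, and without HFD+Mino 3 both were 1.48, with edgeR FDRs of 0.00111 and 0.00396, in a fit that called 21.4% and 6.28% of all genes. Crem overlaps Gm6225 on the opposite strand over 472 exon bases, and counts in that stretch cannot be assigned to a strand from the sources used here. The counts do not separate ICER from the other transcripts of the gene.

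Crtc1, the CREB coactivator found mainly in brain (chr8:70382352-70439702, minus strand), measured 29.7, 42.3 and 76.1 CPM in Control, 99.5, 108 and 92.6 CPM in HFD and 42.1, 15.2 and 60.4 CPM in HFD+Mino. Every HFD sample was above the others, with a spread of 7.92 CPM (SD, n = 3) compared to 24.0 in Control and 22.7 in HFD+Mino. The differences of 1.02 ± 0.45 in HFD compared to Control (edgeR FDR 0.228) and -1.35 ± 0.45 in HFD+Mino compared to HFD (edgeR FDR 0.0461) were not called. The block in Control and HFD+Mino called the second (-1.51, edgeR FDR 0.00409), in a fit that called 25.6% of all genes. With the trend on exon length removed the 2 differences of Crtc1 were 0.65 and -0.75. Crtc2, its widely expressed relative known for its role in hepatic gluconeogenesis (chr3:90253858-90264125, plus strand), measured 21.7, 19.8 and 25.7 CPM in Control, 21.9, 24.7 and 26.6 CPM in HFD and 12.2, 10.7 and 27.8 CPM in HFD+Mino. Replicates 1 and 2 of HFD+Mino were low and replicate 3 was the highest of all. The log2 fold change was 0.13 ± 0.34 and -0.53 ± 0.34 in the same comparisons. Without HFD+Mino 3 the second became -1.09 and was called (edgeR FDR 0.00589, with 21.4% of all genes called), and with HFD+Mino 1 and 2 left out it was 0.19.

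Counted over the 10 genes, 1 was called lower in HFD than in Control (Prkaca), compared to 1.42% of all 17344 genes tested, and 0 were called higher, compared to 0.317%. Between HFD+Mino and HFD 1 was called higher (Prkaca), compared to 1.98% of all genes, and 0 lower, compared to 2.16%. No gene at all was called between HFD+Mino and Control by this test (0% in each direction), although 3697 genes had an unadjusted p under 0.05. DESeq2 called 276 genes and edgeR's likelihood ratio test 106, none of them among the 10. A 3-way test asked for any difference among the 3 groups, at an FDR under 0.01. For a call HFD also had to be the extreme group, at least 1.5-fold from the average of the group log2 values. On these terms 1 of the 10 was called with HFD lowest (Prkaca) and 0 with HFD highest, compared to 1.21% and 0.917% of all genes. In 4 of the 10 all HFD samples lay above the other 6 (Prkacb, Prkar1b, Creb1 and Crtc1), compared to 13.4% of all genes, and in 1 all lay below (Prkaca), compared to 9.62%. The median log2 fold change of the 10 genes was 0.14 in HFD compared to Control, -0.46 in HFD+Mino compared to HFD and -0.37 in HFD+Mino compared to Control, while the medians over all genes tested were 0.0043, 0.0089 and -0.02. Every call in these counts is Prkaca, chosen with its difference known, so the counts carry no result for it, and 0 of the other 9 genes were called. The 1 call in HFD compared to Control became 0 without Control 2 or without any 1 of the HFD samples, in fits that called 0.335% to 0.509% of all genes.

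**Figure D2:**
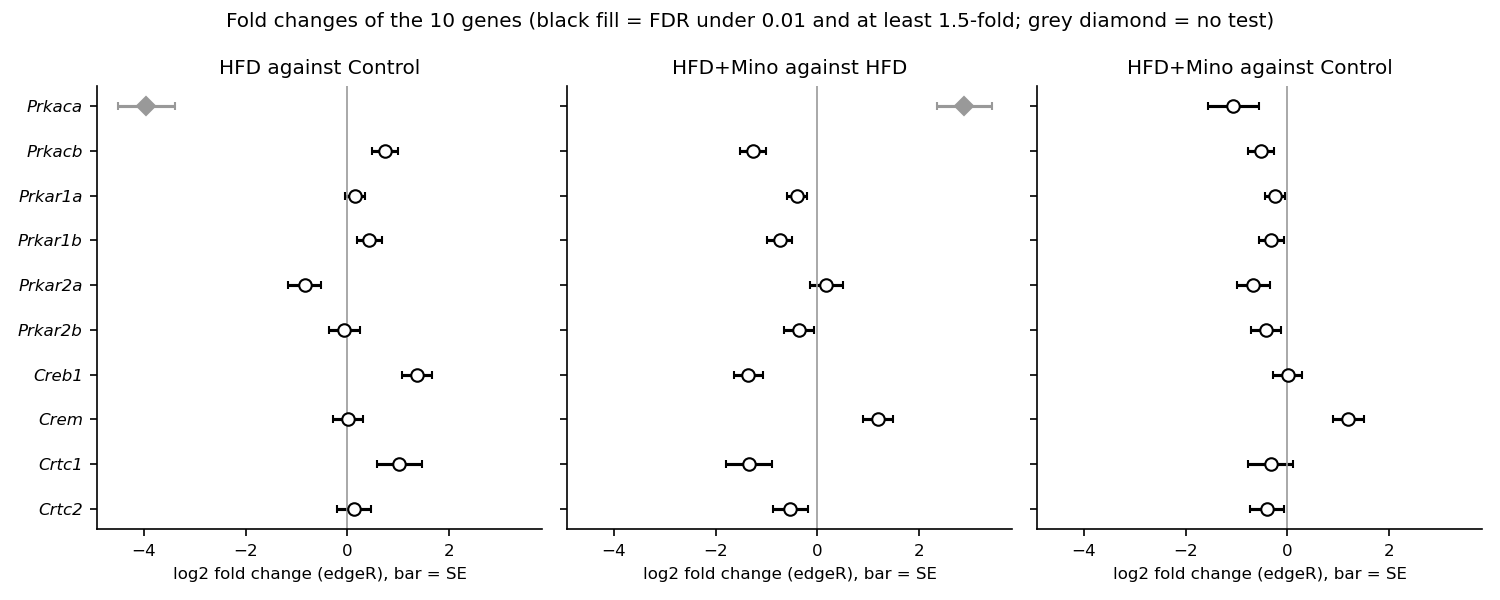
Log2 fold change of each gene in the 3 comparisons with its SE from edgeR (horizontal axis, log2 scale, 3 mice per group), filled where the FDR was under 0.01 and the change at least 1.5-fold. Prkaca, chosen for its difference from HFD, is a grey diamond in the first 2 comparisons and its call is not drawn, and no other gene is filled in any comparison.

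To set paralogs against each other without the scaling between libraries, the log2 ratio of their counts was taken within each sample. For Creb1 to Crem it was -0.72, -0.70 and -0.22 in Control 1 to 3, 0.85, 0.87 and 0.76 in HFD 1 to 3, and -1.95, -1.69 and -1.46 in HFD+Mino 1 to 3. The groups did not overlap, and reads of Creb1 outnumbered those of Crem in HFD samples and in no others. The mean ratio was 1.37 higher in HFD than in Control and differed by -2.53 between HFD+Mino and HFD, compared to a pooled SD of 0.22 within groups. An exact permutation test over all assignments of the 9 samples to 3 groups gave p = 0.00357, the smallest this design can give. Adjusted over the 4 ratios tested, the p of this test was 0.0143. Both genes were chosen with earlier results of these data known, and the adjustment does not cover that choice. When samples were permuted only among those with the same replicate number, as a block, the adjusted p of 0.111 was again the smallest possible. With the trend on exon length removed the ratio was 1.05 higher in HFD than in Control, and the adjusted p remained at 0.0143 by the exact permutation test. The difference of -2.53 between HFD+Mino and HFD is given only without that removal.

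The Prkaca to Prkacb ratio is given without a test, for the reason stated above. It was -1.36, -1.68 and -1.59 in Control 1 to 3, -6.70, -5.91 and -6.19 in HFD 1 to 3, and -2.24, -3.79 and -1.34 in HFD+Mino 1 to 3, on the log2 scale. On the linear scale the geometric mean ratio in HFD was 0.0378 of that in Control. With the trend on exon length removed, the log2 difference of the ratio between HFD and Control went from -4.73 to -4.21.

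None of the other 3 paralog ratios passed the threshold of 0.05 in this test. The exact permutation p for Prkar1a to Prkar1b was 0.186, with mean log2 ratios of 0.44, 0.16 and 0.54 in Control, HFD and HFD+Mino, and it was adjusted to 0.200. HFD+Mino 2, at 1.04, stood apart from the other ratios of that pair, which ran from 0.11 to 0.54, and without it the adjusted p was 0.00714. The Prkar2a to Prkar2b ratio averaged -0.50, -1.19 and -0.70 (exact permutation p = 0.200). Its adjusted p by this test was 0.0429 without HFD 1, but 0.471 without HFD 2 and 0.379 without HFD 3. For Crtc1 to Crtc2 the averages were 1.04, 2.04 and 1.13, with the HFD samples at 2.18, 2.13 and 1.80 and HFD+Mino 1 at 1.79 close below them (exact permutation p = 0.104, adjusted 0.200). Leaving out any other single sample brought no adjusted p of these pairs under 0.05. A p above the threshold in 3 mice per group does not show that these ratios were equal.

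**Figure D3:**
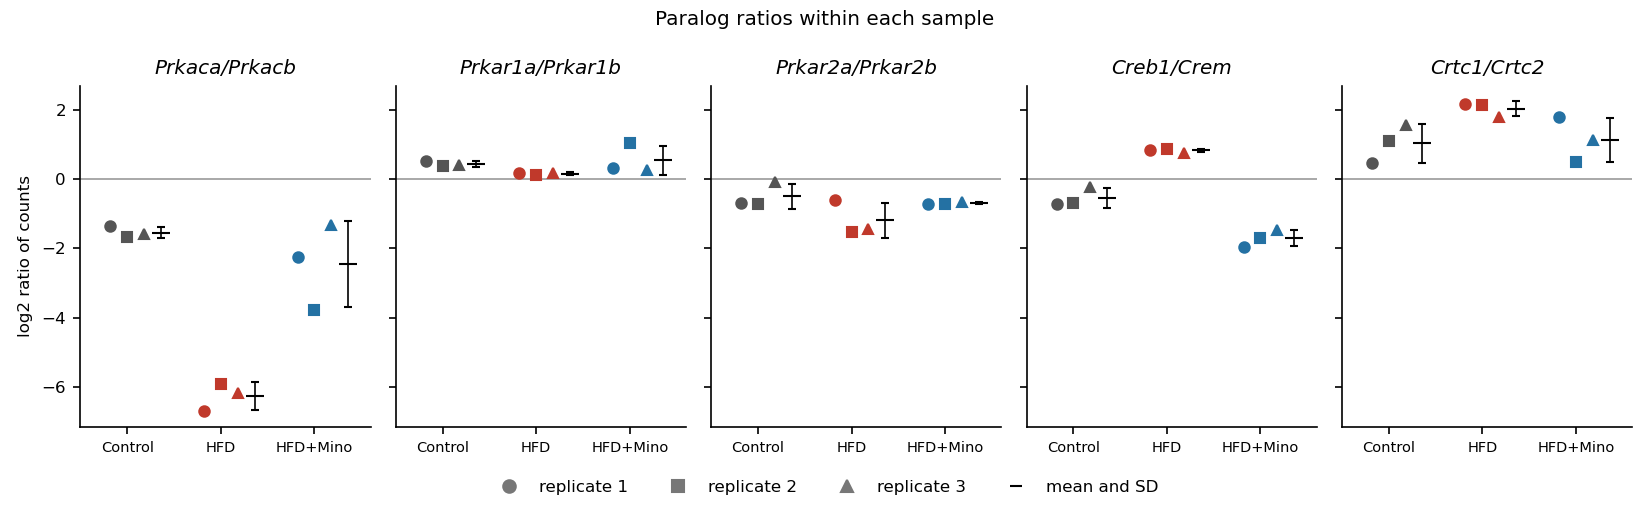
Log2 ratio of the counts of 2 paralogs within each sample (vertical axis, 0 = equal counts), with the mean and SD of each group (n = 3) in black. The Creb1 to Crem ratio separates all 3 groups, and Prkaca to Prkacb is at or below -5.91 in the HFD samples.

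Levels of different genes can be compared only per length, so CPM was divided by the exon length in kilobases. On this scale Prkaca made up 57.9%, 52.4% and 54.0% of the summed catalytic level in Control 1 to 3, 3.26%, 5.55% and 4.61% in HFD 1 to 3, and 42.7%, 20.3% and 58.2% in HFD+Mino 1 to 3. Cα transcripts were the larger part in the Control samples and in HFD+Mino 3 and the smaller part elsewhere. If the longest transcript is used as the length in place of all exons, the mean share is 39.6% in Control and 2.48% in HFD, so which of the pair is larger in Control depends on the length used. The summed catalytic level ran from 101 to 146 CPM per kb in Control, from 93.7 to 103 CPM per kb in HFD and from 48.5 to 113 CPM per kb in HFD+Mino, and the ranges of Control and HFD overlapped. These sums rest on the exon length and were not computed with the longest transcript. In HFD the pool was mostly Prkacb.

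The regulatory pool was almost all type I. Prkar1a took 51.9% ± 1.77 (SD, n = 3) of the summed level per length in Control mice, 47.9% ± 0.926 in HFD mice and 53.8% ± 6.63 in HFD+Mino mice, and Prkar1b took 43.4% ± 1.10, 48.8% ± 0.447 and 42.1% ± 7.04. Prkar2b contributed between 2.05% and 3.61% in any sample and Prkar2a between 0.550% and 1.86%. The summed regulatory level was 4.79 to 5.66 times the catalytic one in Control, 7.03 to 8.49 times in HFD and 5.60 to 10.5 times in HFD+Mino. These are ratios of transcripts per length and not of protein. They rest on the exon length, which for Prkacb is 8772 bases compared to 4347 in its longest transcript. The ratio was not computed with the longest transcript, so no difference between the groups is read from it.

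**Figure D4:**
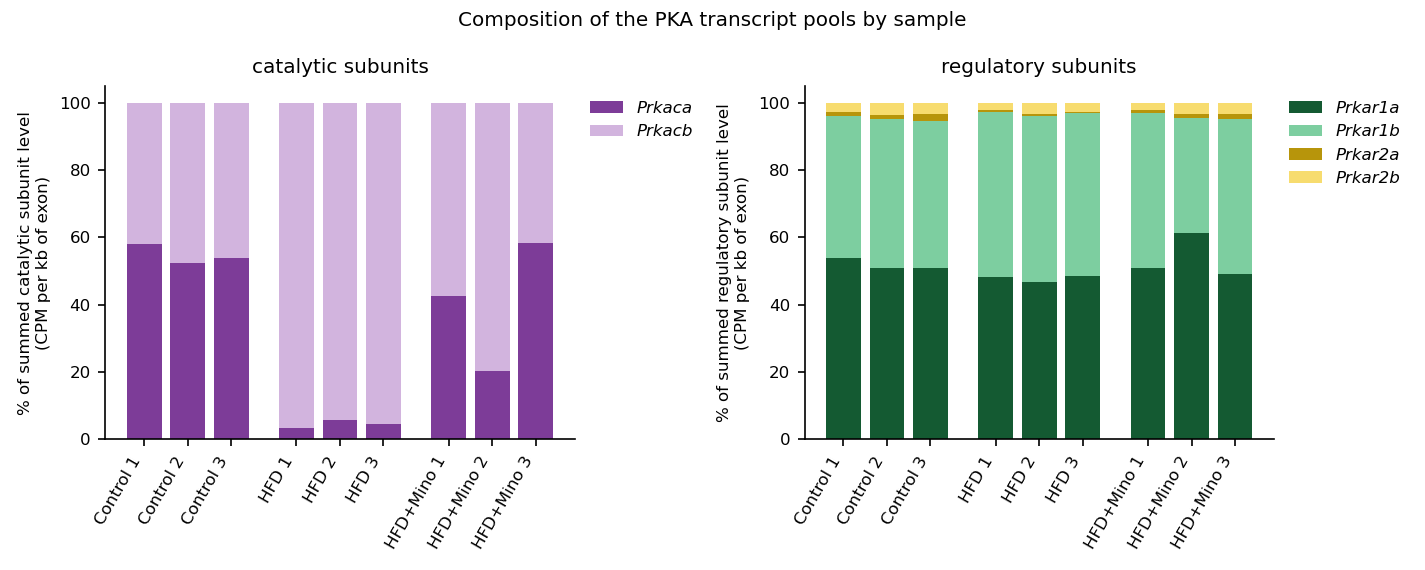
Share of each gene in the summed level of catalytic (left) and regulatory (right) PKA subunits per sample, in percent of CPM per kilobase of exon. Prkaca takes 52.4% to 57.9% of the catalytic pool in Control and 3.26% to 5.55% in HFD, and Prkar1a and Prkar1b are the main parts of the regulatory pool in all samples.

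The rest of the pathway was described with 9 lists of 109 genes, of which 106 were tested. In HFD compared to Control 4 of the 106, or 3.77%, were called lower (Gnas, Adcy2, Hcn2 and Sik3), compared to 1.42% of all genes, and 0 higher, compared to 0.317%. In HFD+Mino compared to HFD 1 was called higher (Gnas) and 1 lower (Sik2), together 1.89%, compared to 4.15% of all genes. Between HFD+Mino and Control 0 were called, as of all genes. The 4 calls in HFD compared to Control became 1 without Control 2 or without any 1 of the HFD samples. Those fits called 0.335% to 0.509% of all genes. Leaving out any other single sample gave 3 to 5 calls. The median log2 fold change over the 106 genes was 0.25 in the first comparison, -0.49 in the second and -0.26 in the third, beside 0.0043, 0.0089 and -0.02 over all genes. The largest lists had no called gene in either comparison with HFD, where 1.74% and 4.15% of all genes were called: 0 of 22 tested CREB target genes, 0 of 19 Gs-coupled receptors, 0 of 16 cAMP phosphodiesterases, which break cAMP down, and 0 of 16 A-kinase anchoring proteins, which tether PKA. The CREB targets had a median of -0.08 in HFD compared to Control and -0.09 in HFD+Mino compared to HFD, with 10 positive and 12 negative in each.

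Gnas, which encodes the stimulatory G protein that couples receptors to adenylyl cyclase, was called in both comparisons with HFD. It measured 2458, 2291 and 2312 CPM in Control, 512, 645 and 620 CPM in HFD and 2634, 2095 and 2515 CPM in HFD+Mino. HFD samples were lower than all others, and Control and HFD+Mino overlapped. The log2 fold change was -1.99 ± 0.21 (edgeR FDR 0.000500) in HFD compared to Control and 2.03 ± 0.21 (edgeR FDR 0.000633) in HFD+Mino compared to HFD. The Gnas locus is imprinted and makes several transcripts, which the gene count adds together.

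Adcy2, an adenylyl cyclase, held 103, 119 and 124 CPM in Control, 25.6, 36.5 and 40.1 CPM in HFD and 51.8, 67.1 and 87.5 CPM in HFD+Mino. The 3 groups did not overlap, and the fall in HFD compared to Control was called (-1.76 ± 0.26, edgeR FDR 0.00307). Hcn2, a cation channel opened by hyperpolarization and gated directly by cAMP, held 74.2, 34.2 and 41.0 CPM in Control, 1.05, 2.09 and 2.29 CPM in HFD and 6.98, 2.34 and 26.1 CPM in HFD+Mino. Its log2 fold change of -4.76 ± 0.78 in HFD compared to Control was the largest of the called pathway genes (edgeR FDR 0.00572). HFD+Mino 2 lay just above the HFD values, and HFD+Mino 1 and 3 were farther from them.

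The salt-inducible kinases, which phosphorylate CRTC proteins and hold them outside the nucleus, differed from each other. Sik3 held 76.8, 71.0 and 94.0 CPM in Control, 14.9, 20.2 and 18.5 CPM in HFD and 33.5, 35.2 and 79.0 CPM in HFD+Mino, and was called lower in HFD than in Control (-2.17 ± 0.34, edgeR FDR 0.00424). Sik2 held 5.04, 4.43 and 8.63 CPM in Control, 15.3, 11.1 and 13.8 CPM in HFD and 2.02, 1.63 and 4.89 CPM in HFD+Mino, and was called lower in HFD+Mino than in HFD (-2.22 ± 0.45, edgeR FDR 0.00998), close to the threshold. Sik2 was above all other samples in HFD, where Sik3 was below them.

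Named whatever their result were Pkia, a peptide inhibitor that binds the catalytic subunit, and Crtc3, the last CRTC gene. Pkia measured 205, 293 and 279 CPM in Control, 294, 290 and 353 CPM in HFD and 83.9, 134 and 168 CPM in HFD+Mino. Its values in HFD+Mino were below all others, and the log2 fold change of -1.28 ± 0.27 compared to HFD was not called (edgeR FDR 0.0117). The other PKA inhibitor genes, Pkig and Pkib, which were added here after their values were seen, had the opposite sign in that comparison. Pkig measured 64.9, 60.7 and 50.2 CPM in Control, 50.2, 56.0 and 47.6 CPM in HFD and 139, 106 and 81.3 CPM in HFD+Mino, where every sample was above all others, and its log2 fold change of 1.09 ± 0.23 was not called either (edgeR FDR 0.0120). Pkib measured 31.7, 69.8 and 74.6 CPM in Control, 73.8, 70.0 and 75.6 CPM in HFD and 147, 279 and 49.0 CPM in HFD+Mino, with a log2 fold change of 1.11 ± 0.50 (edgeR FDR 0.119). Its 2 high values were those of HFD+Mino 1 and 2. Crtc3 stayed between 4.94 and 11.9 CPM in every sample, with a log2 fold change of 0.43 ± 0.33 in HFD compared to Control and -0.23 ± 0.33 in HFD+Mino compared to HFD.

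**Figure D5:**
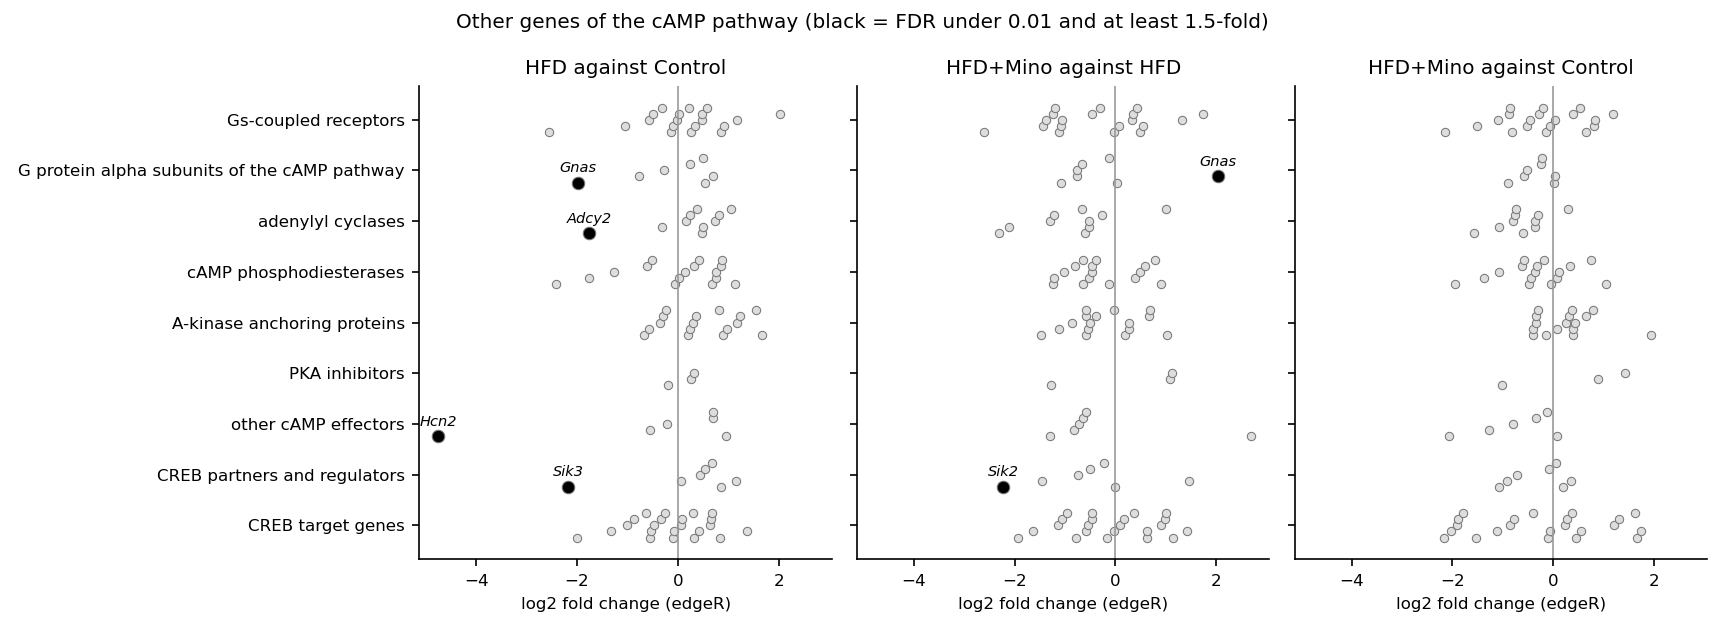
Log2 fold change of the 106 tested cAMP pathway genes in the 3 comparisons (horizontal axis, edgeR, 3 mice per group), 1 row per list and 1 point per gene, black and named where called. Gnas, Adcy2, Hcn2 and Sik3 are called lower in HFD than in Control, and Gnas and Sik2 are the called genes between HFD+Mino and HFD.

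Across the 9 samples, log2 CPM of the 10 genes varied together in part, and these correlations describe samples that share their groups and libraries. Pearson's r was 0.95 between Prkar1b and Crtc1, 0.93 between Prkacb and Prkar1a, and -0.89 between Prkaca and Creb1. Crem had a negative r with each of the other 9 genes, from -0.88 with Crtc2 to -0.06 with Prkaca. Among all genes tested, those most like Prkaca over the 9 samples were Gsk3a (r = 0.996), Ctbp1 (0.995) and Snx25 (0.994). The nearest to Prkacb were 1600014C10Rik (0.994), Kpna3 (0.993) and Arhgef26 (0.993). Creb1 was nearest to Rlim (0.991), Skil (0.990) and Gna13 (0.989), and Crtc1 to Klhl26 (0.993), Chpf (0.989) and Snd1 (0.988).

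Markers of the cell types in a punch were compared in the same way. No marker of neurons (8 genes), PVN neurons (6), astrocytes (6), mature oligodendrocytes (6), microglia (7), ependymal cells (5), choroid plexus (6) or neighbouring hypothalamic nuclei (8) was called in any of the 3 comparisons. Of all genes 1.74% were called in HFD compared to Control, 4.15% in HFD+Mino compared to HFD and 0% in HFD+Mino compared to Control. A count of 0 in lists of this size therefore does not show that cell content was equal. The summed neuronal markers were 5445 to 7930 CPM in Control, 4268 to 6350 CPM in HFD and 4552 to 5142 CPM in HFD+Mino. HFD overlapped both other groups, and every HFD+Mino sample was below every Control sample. Astrocyte markers summed to 1816 to 2056 CPM in Control, 2242 to 2354 CPM in HFD and 1312 to 1689 CPM in HFD+Mino and did not overlap. HFD was highest and HFD+Mino lowest. The PVN markers summed to 28 to 2563 CPM in Control, 2479 to 3726 CPM in HFD and 3104 to 37726 CPM in HFD+Mino. In HFD+Mino 1, the highest, Avp and Oxt alone held 28049 and 8907 CPM. Otp was lower in HFD+Mino (0.371 to 0.616 CPM) than in HFD (0.971 to 1.15 CPM). Trh was higher in HFD+Mino (499 to 852 CPM) than in HFD (260 to 455 CPM). The ranges of Sim1, Crh, Avp and Oxt overlapped between HFD and HFD+Mino. Ependymal markers summed to 16.5 to 144 CPM in Control, 158 to 286 CPM in HFD and 330 to 736 CPM in HFD+Mino, without overlap, and were highest in HFD+Mino 1 and 2 (623 and 736 CPM), the libraries with the highest Crem. Of the oligodendrocyte precursor markers 1 of 5 was called higher and 1 lower in HFD than in Control, compared to 0.317% and 1.42% of all genes. In HFD+Mino compared to HFD 2 of these 5 and 2 of 6 endothelial and mural markers were called lower, compared to 2.16% of all genes. The part of these cell types, of Rn45s and of transcript length in the levels of the PKA and CREB genes was not tested beyond the values given.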

How the data were processed

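The count table gives, for each of 27179 genes listed by Entrez identifier, the counts of reads that the authors assigned with featureCounts after aligning paired 50-base reads to mm10 with HISAT2, deposited without normalization. Libraries were made from amplified cDNA cut by a transposase. Strand setting, treatment of reads with several positions and tool versions are not given in the sources used here. All 9 sample columns were used, 0 were left unused, and the HFD samples, which the table numbers differently, are numbered as in the sample titles. Genes without a symbol took 0.0785% to 0.0932% of a sample's counts and stayed in the library sizes under their identifiers.

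Counts were fitted with edgeR 4.0.16 (filterByExpr, TMM, quasi-likelihood F test, 1 mean per group, all 9 samples) in R 4.3.3. SE is the fold change divided by the root of F. DESeq2 1.42.0, edgeR's likelihood ratio test, other scalings, filters and thresholds, removal of a trend on exon length or GC content, models of 6 samples, replicate blocks and each sample left out were the alternatives, while leaving out 2 libraries together and a block restricted to Control with HFD+Mino were chosen after seeing the data. That block was used because same-numbered samples of these groups deviated together (correlations 0.135, 0.164 and 0.292, and below 0 for same numbers in the other pairs of groups). Samples of Control and HFD+Mino with different numbers had correlations of 0.026 or lower. Control 2 and HFD 1, with different numbers, had 0.167, so values of this size also occurred outside the pairing. The pairing comes from the counts, since no source names a shared litter, batch or day. Paralog log2 ratios used counts plus 0.5 and a two-sided exact permutation test of F, adjusted over 4 ratios. Exon lengths came from GENCODE M21 and positions from RefSeq GRCm38.p6. The code was tested on simulated counts. Replicates differed by more than counting noise. Reads carry no molecular identifiers, so precision was taken from the spread between mice. The genes, lists and markers were chosen with earlier results of these data known. Named were the 10 genes, every called gene of the cAMP lists, Gnas, Pkia and Crtc3, with Pkig and Pkib added after their values were seen, and the 3 genes most correlated with each of Prkaca, Prkacb, Creb1 and Crtc1.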

Additional observations from a re-analysis of the deposited data

How the results depend on the processing

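Counts of called genes moved with the setting. Of the 10 PKA and CREB genes 1 was called in HFD compared to Control, 1 in HFD+Mino compared to HFD, 0 in HFD+Mino compared to Control and 1 in the 3-way test, and of the 106 cAMP pathway genes 4, 2 and 0, beside 1.74%, 4.15%, 0% and 2.13% of all genes. DESeq2 called 2, 4, 0 and 3 of the 10 and 9, 19 and 2 of the pathway genes, but also 6.91%, 23%, 1.59% and 13.6% of all genes. The edgeR likelihood ratio test called 2, 4, 0 and 3 and then 9, 16 and 0, beside 5.57%, 19.1%, 0.611% and 12.9%. An FDR under 0.05 gave 2, 6, 0 and 3 and then 9, 23 and 0, beside 5.77%, 27.4%, 0% and 13%. Without a filter on low counts 4 of the 10 were called between HFD+Mino and HFD, 2 in the 3-way test, and 7 and 10 pathway genes in the first 2 comparisons, beside 7.61% and 5.19% of all genes in the second comparison and the 3-way test and 1.92% in the first. Between HFD+Mino and HFD a mean count of at least 50 gave 2 and 5 (6.76% of all genes), removal of the GC trend 4 and 6 (8.76%) with 2 in the 3-way test (3.61%), RLE size factors 1 pathway gene (4.19%), and removal of the exon length trend 0 of the 10 (2.6%). In fits of 6 samples 2 of the 10 and 7 pathway genes were called between HFD and Control (3.67%), and 0 and 1 between HFD+Mino and HFD (2.43%).

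The replicate block over all groups gave 2 of the 10 and 11 pathway genes between HFD+Mino and HFD (7.89% of all genes), with the exon length trend removed as well 0 and 6 (2.61%), and with 6 samples 0 and 4 (2.27%). The block in Control and HFD+Mino alone gave 2, 5, 0 and 4 of the 10 and 7, 21 and 4 pathway genes, beside 6.22%, 25.6%, 3.18% and 13.2% of all genes. Under the replicate block the Creb1 to Crem ratio kept its difference of 1.37 with an adjusted exact permutation p of 0.111. Leaving out Control 1 and 2 leaves 1 Control sample, which is assumed to vary like the other groups. That fit called 0 of the 10 in any test and 0 and 1 pathway genes in the first 2 comparisons, but in HFD compared to Control 23 of 19073 genes in all, so its 0 says nothing about these 10. Leaving out HFD+Mino 1 and 2 likewise leaves 1 sample in that group, and 2 of the 10 were called in HFD compared to Control (3.21% of all genes) and 2 in the 3-way test (1.97%).

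Leaving out single samples gave 0 to 2, 0 to 5, 0 to 2 and 0 to 3 of the 10 genes and 1 to 5, 0 to 17 and 0 to 10 pathway genes in the same order, beside 0.335% to 3.08%, 0.162% to 21.4%, 0% to 6.28% and 0.0168% to 13.4% of all genes. The 10 pathway genes and the 2 of the 10 called between HFD+Mino and Control came without HFD+Mino 3, and the 17 likewise. The difference of the Prkar1a to Prkar1b ratio between HFD and Control ran from -0.31 to -0.23 and that of Prkar2a to Prkar2b from -0.98 to -0.49.

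Some differences near 0 changed sign. Crem in HFD compared to Control was -0.00082 with DESeq2, -0.00085 with RLE size factors, -0.021 without a filter, -0.068 with the GC trend removed, -0.17 with the exon length trend removed, -0.14 with the block added to that, -0.018 with the block in Control and HFD+Mino alone and -0.099 to 0.062 with single samples left out. Creb1 in HFD+Mino compared to Control was -0.0021 without a filter, -0.028 with the replicate block, -0.042 with the GC trend removed, -0.0041 with 6 samples, -0.062 with 6 samples and the block, -0.055 with the block in Control and HFD+Mino alone, -0.29 without Control 1 and 2, -0.54 without HFD+Mino 1 and 2 and -0.37 to 0.22 with single samples left out. With single samples left out, Crtc1 in HFD+Mino compared to Control ran from -0.79 to 0.12, Prkar2a in HFD+Mino compared to HFD from -0.13 to 0.40 and Prkar2b in HFD compared to Control from -0.25 to 0.13. Without Control 1 and 2, Crtc2 in HFD compared to Control was -0.071. Without HFD+Mino 1 and 2, the values compared to Control were 0.30 for Crtc1, 0.32 for Crtc2, 0.048 for Prkar1b and 0.022 for Prkar2b, and compared to HFD 0.19 for Crtc2 and 0.072 for Prkar2b. The cause of these changes was not tested.

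With the longest transcript as length, Prkaca made up 39.6% and 2.48% of the catalytic pool in Control and HFD, Prkar1a 48.4% and 44.3% and Prkar1b 47.6% and 52.9% of the regulatory pool, and Prkar2b 2.71% in Control. With 3 mice per group, an exact test of 2 groups cannot give a p below 0.10.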
